A study of Gallus gallus with 6 samples.

Results

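The genes described here are the abundant long non-coding RNA (lncRNA) genes of the chick auditory epithelium, 47 of 5791 rows of that biotype in a table of 25619 genes. They were chosen by their annotated biotype and by a mean of at least 5 FPKM (fragments scaled to gene length and library depth) over the 6 libraries, so their high levels are a description and not a result. The libraries came from the basilar papilla, the sensory epithelium of the bird cochlea, kept as explants of the cochlear duct from chicks at post-hatch day 1. All 6 had been exposed for 48 h to streptomycin (SM), an antibiotic that kills hair cells, a treatment the labels describe as removing all hair cells, and are titled day 3. In 3 of them SM was the only agent (SM control), and in the other 3 BQ788, a blocker of the endothelin receptor type B, was added after SM (SM plus BQ788). The labels give no allele or strain, and no library came from explants without SM. Nothing in them states whether the 3 replicates of a group are separate animals or cultures. The p-values therefore refer to the spread among these 6 libraries, and that spread may be technical.

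Long non-coding RNAs are transcripts that are spliced and processed much like messenger RNAs but carry no annotated protein-coding frame. Many are transcribed from the strand opposite a coding gene or from a promoter shared with one, some carry small nucleolar RNAs (snoRNAs) in their introns, and as a class they are usually less abundant than messenger RNAs. In birds the supporting cells of the basilar papilla replace lost hair cells, and the comparison asks how transcription differs when a receptor of the endothelin pathway is blocked during that time.

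Recovered reads came to between 15438305 and 17375656 per library. Markers of the labelled tissue were present in every library, with the tectorial membrane gene TECTA at 259 to 521 FPKM and the hair cell factor ATOH1 at 134 to 176 FPKM. Over all genes, 355 of 11857 tested passed an adjusted p of 0.05 (limma on log2(FPKM + 1), Benjamini-Hochberg adjustment), which is 2.99%. Summed over each marker list, fibroblast genes lay between 270 and 347 FPKM in the controls and at 380, 152 and 197 FPKM in BQ788 replicates 1, 2 and 3. The sums of 4 lists were lower in every BQ788 library than in any control. They were those of cartilage genes (254 to 297 against 137 to 166 FPKM), melanocyte genes (19.3 to 21.2 against 8.69 to 11.9 FPKM), neuron and Schwann cell genes (143 to 163 against 133 to 139 FPKM) and hair cell genes (449 to 484 against 397 to 406 FPKM). Of their tested genes 3 of 6, 1 of 5, 3 of 8 and 0 of 15 passed the threshold, all lower, beside 2 of 17 fibroblast genes, also lower. No gene of these 5 lists was at 0 in all libraries. Outside the cartilage list the genes did not all move together. The means of MITF (1.15 FPKM in SM control and 1.32 FPKM with BQ788), PMP22 (23.7 and 26.9 FPKM) and MYO6 (71.7 and 73.4 FPKM) were higher with BQ788. ISL1, at 73.3 and 64.1 FPKM, was the largest part of the neuron and Schwann cell sum. Median log2 fold changes of tested genes were -0.69 (cartilage), -0.59 (melanocyte), -0.12 (neuron and Schwann cell) and -0.34 (hair cell). In bulk RNA, fewer cells of a type and less RNA per cell cannot be told apart.

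Few lncRNA rows reached the level of ordinary coding genes. Of all lncRNA rows 2005 were at 0 in every library, 5500 had a mean below 1 FPKM and 244 lay between 1 and 5 FPKM. The 47 abundant genes were 0.812% of the lncRNA rows, whereas 44.4% of coding rows reached 5 FPKM on average. Together they held 0.283% to 0.412% of the reads of a library. Most sat near the lower edge, with 26 genes between 5 and 10 FPKM, 8 between 10 and 20, 8 between 20 and 100, and 5 above 100. Those 5 made up 66.3% of the summed mean FPKM of all 47. Just inside the threshold were LOC121113202 at a mean of 5.20 FPKM, LOC121111118 at 5.17 and RNF212B at 5.08. Just outside lay LOC121109254 at 4.98 FPKM, LOC107051620 at 4.91 and LOC101751097 at 4.85. In 35 of the 47 every library was at 5 FPKM or more, and 5 had a mean below 5 FPKM with BQ788 and 1 in the controls.

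**Figure D1:**
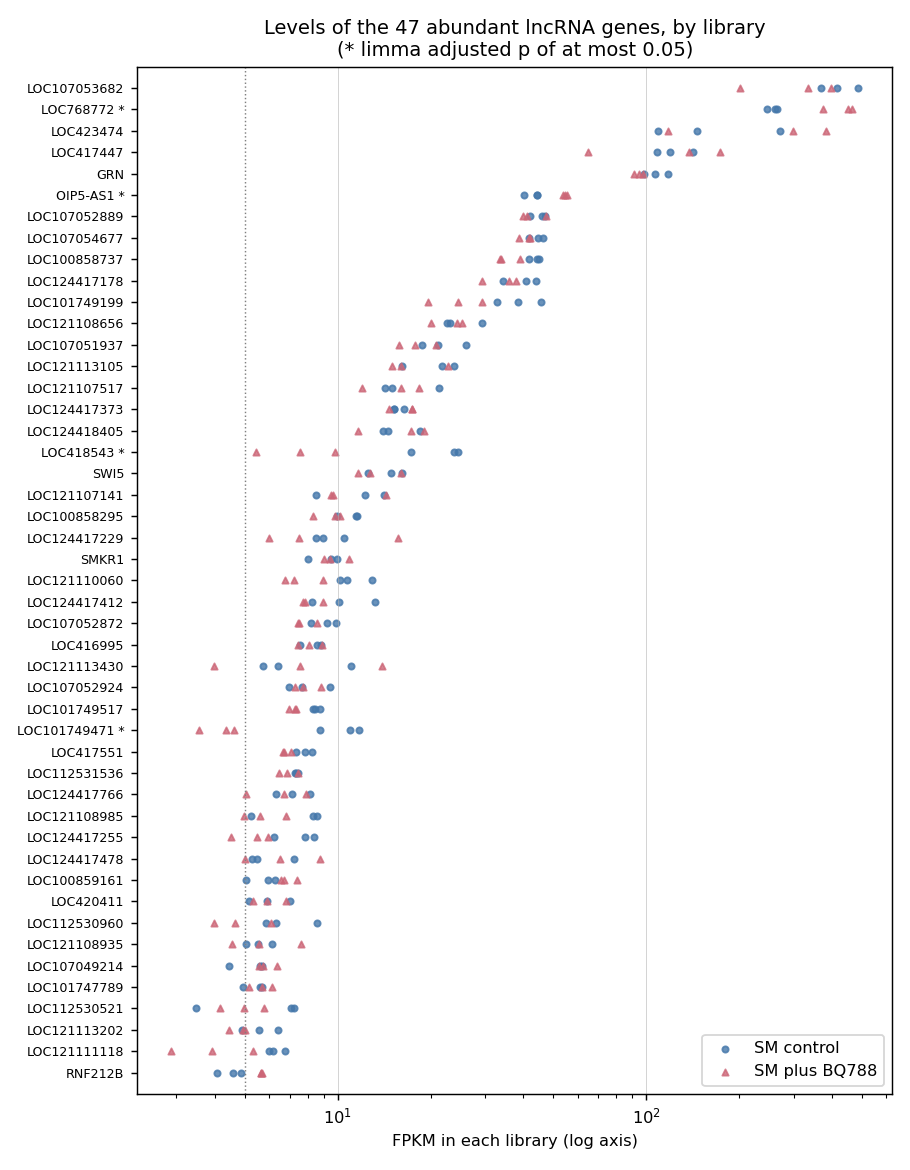
FPKM of each abundant lncRNA gene in every library on a log axis, ordered by mean, with circles for SM control, triangles for SM plus BQ788, a dotted line at 5 FPKM and an asterisk for an adjusted p of at most 0.05. The upper 5 genes include LOC417447, with its lowest library at 64.9 FPKM, and in LOC768772, OIP5-AS1, LOC418543 and LOC101749471 the marks of the groups lie apart.

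The biotype is RefSeq's, and for a number of these rows the deposited description points to a protein. The descriptions of 41 genes read "uncharacterized", OIP5-AS1 is a named antisense RNA, and 5 are named for proteins. These 5 are GRN (progranulin, a secreted precursor of granulins), SWI5 (a homologous recombination factor), RNF212B (in mouse a factor of meiotic crossing-over), SMKR1 (small lysine-rich protein 1) and LOC423474, described as LBH-like after a transcription cofactor. A match to a Swiss-Prot protein was listed for 20 of the 47 (42.6%), against 731 of all lncRNA rows (12.6%). In 8 of the 20 the matched protein was that of the coding gene which the lncRNA gene overlaps on the other strand. The remaining 12 include LOC107052889, matched to mouse CEBPZOS, LOC100858737, matched to mouse SMIM29, and LOC101749471, matched to a primate COX8B, a subunit of cytochrome c oxidase. LOC124418405, matched to a retroviral Gag-Pol polyprotein, may share reads with repeated copies. Whether any of these transcripts is translated was not measured.

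The abundant lncRNA genes were short. Their median length in the table was 864 bases (quartiles 419.5 and 2044), against 2317 bases for all lncRNA rows and 3232 bases for coding genes averaging 5 FPKM or more. Of the 47, 25 were shorter than 1 kb (53.2%), against 7.94% of coding genes at that level, and 14 were shorter than 500 bases. FPKM divides by this length, so a short gene passes the threshold with few reads, and length is not independent of the choice of genes. The shortest, LOC121113430 (211 bases), rested on 13 to 52 reads per library, and the next, LOC124417478 on chromosome W (218 bases), on 17 to 34. The longest were LOC124418405 (9795 bases) and OIP5-AS1 (9133 bases), the latter with 5840 to 8692 reads. In 11 of the 47 genes at least 1 library had fewer than 50 reads. The median within-group coefficient of variation was 14.0%, against 7.96% for coding genes of that level.

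**Figure D2:**
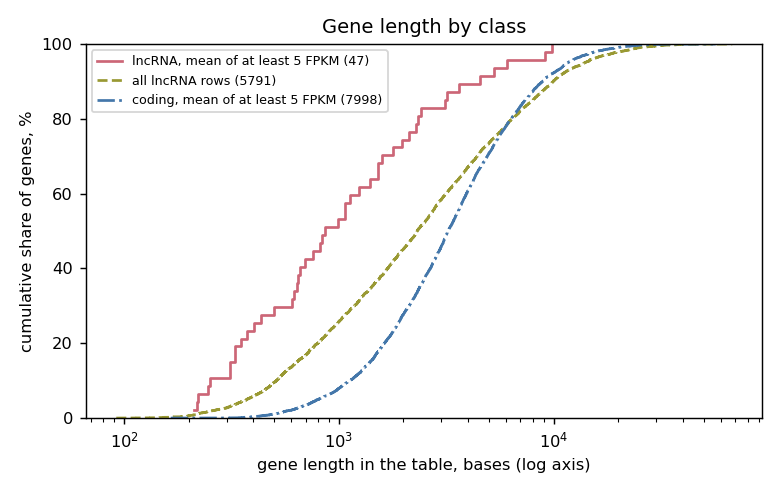
Cumulative share of genes (%) by gene length in bases on a log axis, for the 47 abundant lncRNA genes, all lncRNA rows, and coding genes averaging 5 FPKM or more. The curve of the abundant lncRNA genes rises first, with its median at 864 bases against 3232 for the coding genes.

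Most abundant lncRNA genes lay on or beside a coding gene. By the table's coordinates 39 of 47 (83.0%) overlapped a coding gene or lay within 5000 bases of one, against 60.6% of all lncRNA rows. Overlap itself was no more common than among all lncRNA rows, at 40.4% against 41.6%. In 17 genes the coding gene with the longest overlap was on the other strand and in 2 on the same strand. These 2 were LOC124418405, on CD69L, and LOC124417478, on a gene described as unconventional myosin-Vb-like. The Swiss-Prot match of LOC124417478 is likewise myosin-Vb (MYO5B). Where exons overlap on the same strand, counting by strand would not separate the reads. A further 8 were divergent, with starts facing away from each other (17.0%, against 8.89% of all lncRNA rows), and 6 of these had a gap of at most 500 bases to the coding gene. Convergent neighbours numbered 6 (12.8%, against 3.59% of all lncRNA rows). On the same strand 4 lay downstream (8.51%, against 3.23%) and 2 upstream (4.26%, against 3.32%). Another 7 were farther than 5000 bases away (14.9%, against 39.0%), and 1 had no coding gene on its sequence. The nearest coding gene was assigned a transcription factor family in the table for 7 of 46 (15.2%). The share was 9.64% over all lncRNA rows, 11.4% over the lncRNA genes tested and 6.08% of coding genes themselves. The 7 neighbours were SOX10, SIX2, ISL1, HMGA1, NPAS2, ZFX and SMARCC1. EBF3, the neighbour of LOC121111118, was given no family there.

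The most abundant was LOC107053682 (chromosome 1, 51088280 to 51092185, minus strand, GRCg7b here and below), which lies divergent from SOX10 at a gap of 2905 bases. SOX10 is an HMG-box transcription factor of the neural crest and the otic epithelium. LOC107053682 was at 368, 415 and 486 FPKM in SM control replicates 1, 2 and 3 and at 201, 335 and 397 FPKM in BQ788 replicates 1, 2 and 3. The groups overlapped, and BQ788 replicate 1 was the lowest library. The log2 fold change, SM plus BQ788 minus SM control on the log2(FPKM + 1) scale here and below, was -0.49 (SE 0.25, limma adjusted p = 0.298), and -0.20 without BQ788 replicate 1. SOX10 itself was at 119 ± 3.61 and 112 ± 17.1 FPKM (mean ± SD of 3 libraries, as in all values of this form), so the lncRNA gene stood 3.17 times above it per unit of length. Of the reads on all 47 genes, LOC107053682 alone held 36.5% to 37.6% in the controls and 23.6% to 28.6% with BQ788. That share depends also on the other genes, LOC768772 being higher with BQ788, and is no measure of the gene's own level.

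LOC423474 (chromosome 5, 49538959 to 49558346) and LOC417447 (chromosome 18, 9490399 to 9528070) spread widely within each group. LOC423474, the LBH-like gene, was at 109, 146 and 272 FPKM in the controls and 117, 298 and 381 FPKM with BQ788. A separate coding gene named LBH stands on chromosome 3, and how reads were divided between them is not given. LBH was at 20.5, 22.5 and 23.6 FPKM in the controls and 19.6, 32.7 and 39.1 FPKM with BQ788, its libraries standing in the same order within each group as those of LOC423474. LOC417447 was at 108, 119 and 141 FPKM in the controls and 64.9, 137 and 174 FPKM with BQ788. In both genes replicate 1 was the lowest and replicate 3 the highest of each group, and the groups overlapped (log2 fold changes 0.53, SE 0.50, and -0.08, SE 0.34, limma adjusted p = 0.576 and 0.922). For LOC423474 the log2 fold change was 1.04 without BQ788 replicate 1, 0.19 without BQ788 replicate 3, 0.25 without SM control replicate 1 and 0.90 without SM control replicate 3. For LOC417447 the log2 fold change was 0.33 without BQ788 replicate 1 and 0.03 without SM control replicate 3. BQ788 replicate 1 was also the library with the highest summed fibroblast markers and the lowest summed supporting cell markers (3215 FPKM, against 3897 to 5028 in the others). The genes of neither list moved together. In that library COL1A1 (119 FPKM) and COL1A2 (84.2 FPKM), the largest parts of the fibroblast sum, were highest. POSTN (5.48 FPKM) and MGP (4.43 FPKM), of the same list, were lowest there. Of the supporting cell genes TECTB (1558 FPKM) and GJB6 (756 FPKM), which make up most of their sum, were lowest. SOX2 (61.0 FPKM) and HES5 (16.1 FPKM) were highest. The part of fibroblasts and supporting cells in the spread was not tested. The nearest coding genes were the kinase gene CDC42BPB (60.8 ± 0.310 and 60.9 ± 3.85 FPKM) and the zinc transporter gene SLC39A11 (15.0 ± 1.15 and 15.4 ± 0.450 FPKM). The SEs of their log2 fold changes were 0.06 and 0.07, against 0.50 and 0.34 for LOC423474 and LOC417447.

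**Figure D3:**
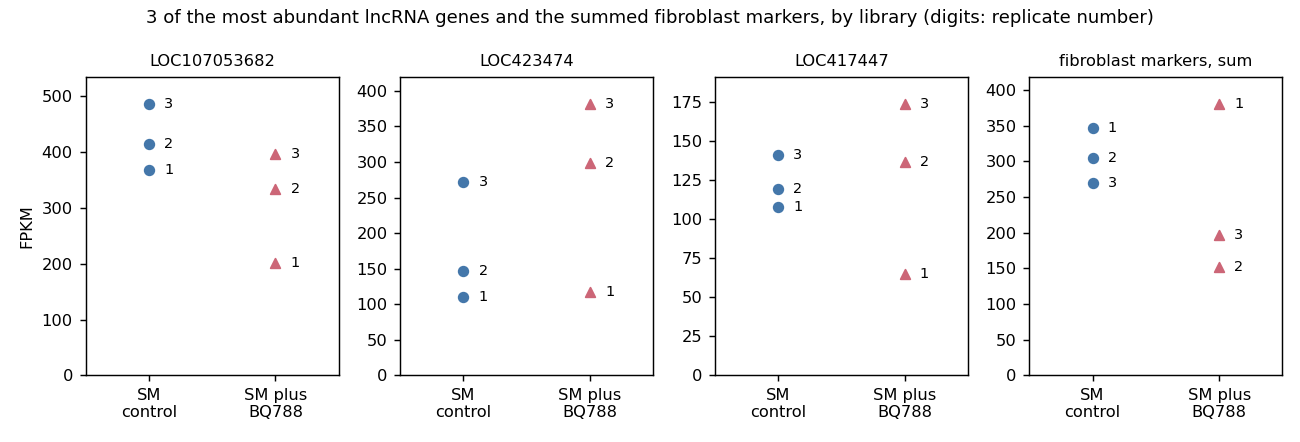
FPKM of LOC107053682, LOC423474, LOC417447 and of the summed fibroblast marker genes in each library by group, with the replicate number beside each point and axes from 0. LOC423474 runs from 109 to 381 FPKM with replicate 1 lowest in each group, while the summed fibroblast markers are highest, at 380 FPKM, in BQ788 replicate 1. The fibroblast genes did not all move with their sum.

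GRN (chromosome 27, 1205995 to 1212629), the only row of that symbol in the table, was at 98.7, 118 and 107 FPKM in the controls and 97.6, 94.5 and 91.1 FPKM with BQ788. All BQ788 libraries were below the controls, the nearest pair being 97.6 and 98.7 FPKM, and the difference did not pass (log2 fold change -0.19, SE 0.08, limma adjusted p = 0.222, and -0.12 without SM control replicate 2). Its 3' end lies 14 bases from that of FAM171A2. Near 40 FPKM in mean level stood LOC107052889 (44.9 ± 2.56 and 42.8 ± 3.89 FPKM), which overlaps CEBPZ on the other strand, and LOC107054677 (44.2 ± 2.38 and 40.8 ± 1.71 FPKM), convergent with the ring finger gene RNFT2. LOC124417178 (39.7 ± 4.85 and 34.3 ± 4.41 FPKM) overlaps SQSTM1, which encodes a receptor of selective autophagy. None of these 3 passed the threshold, and in each the groups overlapped.

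Between SM plus BQ788 and SM control, 4 of the 47 genes passed an adjusted p of 0.05 over all genes tested, 2 higher (LOC768772 and OIP5-AS1) and 2 lower (LOC418543 and LOC101749471). That is 8.51% of the abundant lncRNA genes, against 2.99% of all genes tested, 3.3% of coding genes averaging 5 FPKM or more and 2.41% of the 291 lncRNA genes tested (by direction, 0.751% of all genes were higher and 2.24% lower). Every abundant lncRNA gene passed the filter of the test, a mean of at least 1 FPKM. The groups did not overlap in 14 of the 47, 4 higher and 10 lower (29.8%, against 29.3% of all genes tested, 15.2% higher and 14.1% lower), a share near the background. The median log2 fold change over the 47 was -0.11, with 34 of them below 0 (72.3%), against 0.02 and 46.5% below 0 over all genes tested. Over the 291 lncRNA genes tested, which include the 47, it was -0.07 with 60.8% below 0. A lean below 0 was thus not particular to the abundant genes. The median over the 47 was -0.07 with the trend of fold change on gene length removed. The genes were chosen by the mean over both groups. Of the 47, 5 averaged below 5 FPKM with BQ788, LOC101749471 among them, and 1 in the controls. The sign of their difference is tied to that choice. Without SM control replicate 1, 2 or 3, or without BQ788 replicate 2, the count of calls was 0. Without BQ788 replicate 3 it was 1, LOC768772, and without BQ788 replicate 1 it was 6, the same 4 with LOC100858737 and LOC101749199.

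LOC768772 (chromosome 6, 3333025 to 3335988, plus strand) was the second most abundant and rose. It is 350 bases long, has no Swiss-Prot match and lies convergent with GLUD2, a glutamate dehydrogenase gene, at a gap of 2699 bases. Its level was 261, 264 and 245 FPKM in the controls and 465, 451 and 373 FPKM with BQ788. All BQ788 libraries stood above every control, the lowest of them at 373 FPKM and the highest control at 264 FPKM. The means were 257 ± 10.1 and 429.5 ± 49.8 FPKM, 1.67 times higher under BQ788 in the mean (log2 fold change 0.73, SE 0.10, limma adjusted p = 0.0294). GLUD2 was at 38.6 ± 2.20 and 39.9 ± 10.6 FPKM (log2 fold change 0.01). LOC768772 passed under 11 of 12 alternative settings with all libraries, and without each library in turn its adjusted p ran from 0.0230 to 0.135.

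OIP5-AS1 (chromosome 5, 24070964 to 24085723, plus strand) also rose. It bears the name of a lncRNA conserved among vertebrates and known as Cyrano, which in mouse directs the decay of a microRNA. It was at 44.2, 44.2 and 40.2 FPKM in the controls and 53.6, 55.3 and 54.5 FPKM with BQ788. The groups were tight and apart, at 42.9 ± 2.29 and 54.5 ± 0.820 FPKM (log2 fold change 0.34, SE 0.06, limma adjusted p = 0.0415). It passed under 8 of 12 alternative settings and was lost by eBayes without trend, by quantile normalization, by plain read totals and with no filter on low values, at adjusted p up to 0.0769. Leaving out 1 library gave adjusted p from 0.0325 to 0.163. Its convergent neighbour OIP5, which encodes a protein of centromere assembly, was at 8.14 ± 0.371 and 7.90 ± 1.17 FPKM (log2 fold change -0.05, limma adjusted p = 0.832). Of 66 symbols of conserved or named lncRNA and other long non-coding genes, 6 were in the table, and apart from OIP5-AS1 only SRA1, there a coding row, was above 0 (28.4 ± 2.10 and 22.9 ± 3.15 FPKM, limma adjusted p = 0.170).

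LOC418543 (chromosome 1, 109750746 to 109752249, minus strand) fell most. It was at 24.5, 17.3 and 23.9 FPKM in the controls and 5.42, 7.55 and 9.80 FPKM with BQ788, on 103 to 465 reads. Every BQ788 library was below every control. The means were 21.9 ± 3.97 and 7.59 ± 2.19 FPKM (log2 fold change -1.43, SE 0.21, limma adjusted p = 0.0332), and the adjusted p ran from 0.0233 to 0.143 without each library in turn. It lies 2263 bases downstream of CYLY, a cysteine lyase gene, on the same strand. CYLY was nearly silent, at 0.0464 ± 0.0415 and 0.0374 ± 0.0319 FPKM.

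LOC101749471 (chromosome 5, 1793449 to 1796474, plus strand) fell from 11.7, 11.0 and 8.75 FPKM in the controls to 4.36, 3.55 and 4.61 FPKM with BQ788, on 42 to 145 reads. Again the groups lay apart, at 10.5 ± 1.54 and 4.17 ± 0.555 FPKM (log2 fold change -1.14, SE 0.13, limma adjusted p = 0.0227). It was called under all 12 alternative settings with all libraries, and without each library in turn the adjusted p ran from 0.0198 to 0.127. None of these settings changed which genes were chosen, and its mean of 4.17 FPKM with BQ788 was below 5 FPKM. It overlaps PGGHG, a glucosidase acting on the sugar side chains of collagen, on the other strand. PGGHG was at 1.26 ± 0.255 and 1.42 ± 0.109 FPKM (log2 fold change 0.10), below the lncRNA gene. The cartilage, melanocyte, neuron and Schwann cell, and hair cell marker sums were also lower in the BQ788 libraries. Those lists, LOC418543 and LOC101749471 were each singled out as lower with BQ788, so their shared direction was fixed by that choice. The part of those cells in the decreases of LOC418543 and LOC101749471 was not tested.

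**Figure D4:**
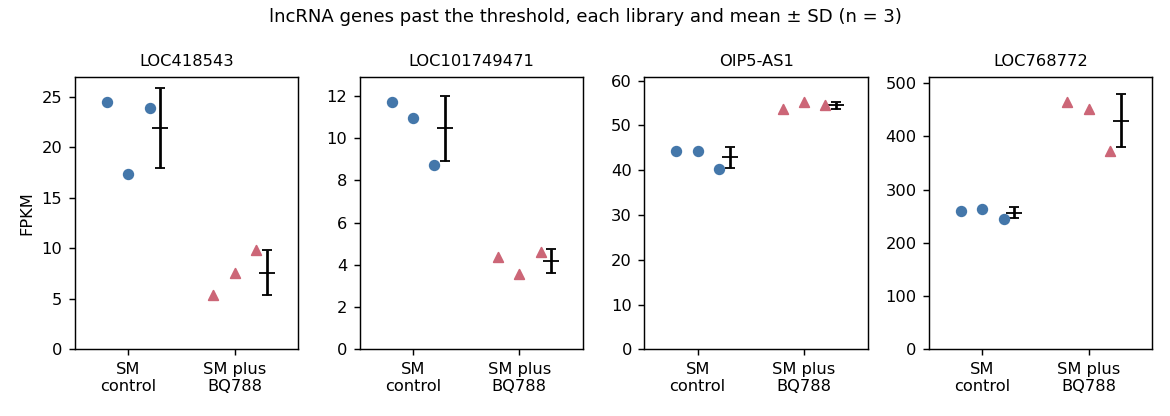
FPKM of the 4 abundant lncRNA genes past the threshold in each library (circles SM control, triangles SM plus BQ788), with the mean ± SD of 3 libraries beside them and axes from 0. In each panel the groups do not overlap. LOC418543 and LOC101749471 are lower with BQ788 and OIP5-AS1 and LOC768772 higher.

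The next genes by p did not pass. LOC121110060, on the strand opposite SMARCC1, a subunit gene of the SWI/SNF chromatin remodeller, was at 10.2, 12.9 and 10.8 FPKM in the controls and 7.24, 6.75 and 8.99 FPKM with BQ788. LOC101749199, which lies 133592 bases from the nearest coding gene TACC3, was at 38.5, 45.6 and 32.8 FPKM in the controls and 29.3, 24.4 and 19.6 FPKM with BQ788. In both the BQ788 libraries were below every control (log2 fold changes -0.50, SE 0.13, and -0.66, SE 0.17, limma adjusted p = 0.0872 and 0.0941). LOC100858737, matched to mouse SMIM29, was at 43.5 ± 1.75 and 35.4 ± 3.05 FPKM with the same adjusted p of 0.0941. RNF212B was at 4.50 ± 0.412 and 5.65 ± 0.0327 FPKM (log2 fold change 0.28, limma adjusted p = 0.112). At 35 of the 47 genes the log2 fold change was below 0.3 in size.

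Among the coding neighbours, 3 of 44 tested passed (6.82%), all lower with BQ788, and none of them belonged to a lncRNA gene that passed. Of all coding genes tested 3.04% passed, 0.747% higher and 2.29% lower. HMGA1, a chromatin protein gene convergent with LOC100858737 at a gap of 116 bases, fell from 24.7 ± 0.203 to 16.0 ± 1.41 FPKM (log2 fold change -0.60, limma adjusted p = 0.0258), beside -0.29 for the lncRNA gene. PRLR, the prolactin receptor gene, fell from 18.7 ± 1.55 to 10.1 ± 0.897 FPKM (log2 fold change -0.82, limma adjusted p = 0.0207). LOC112530521, which overlaps PRLR on the other strand on 17 to 40 reads per library, was at 7.23, 3.47 and 7.06 FPKM in the controls and 5.78, 4.16 and 4.95 FPKM with BQ788, so its groups overlapped. LOC121106913, described as a Ral guanine nucleotide dissociation stimulator-like gene, fell by 0.58 (limma adjusted p = 0.0406) beside -0.42 for LOC124417255, 639 bases upstream of it. In the other direction COL27A1, a fibrillar collagen gene, was at 37.2 ± 0.129 and 52.3 ± 15.6 FPKM. Its BQ788 replicates 1, 2 and 3 were at 70.2, 43.1 and 43.5 FPKM, so replicate 1 raised the mean. LOC101749517, on the strand opposite COL27A1, was at 8.51 ± 0.237 and 7.19 ± 0.220 FPKM, and neither gene passed. Over all pairs with both genes tested, lncRNA gene and neighbour had the same sign in 26 of 44 (59.1%), against 55.8% of 5802 neighbouring pairs of coding genes. Within 5000 bases it was 24 of 37 (64.9%), against 56.7% of 4564 such pairs. The pairs share their libraries and are no independent replicates.

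**Figure D5:**
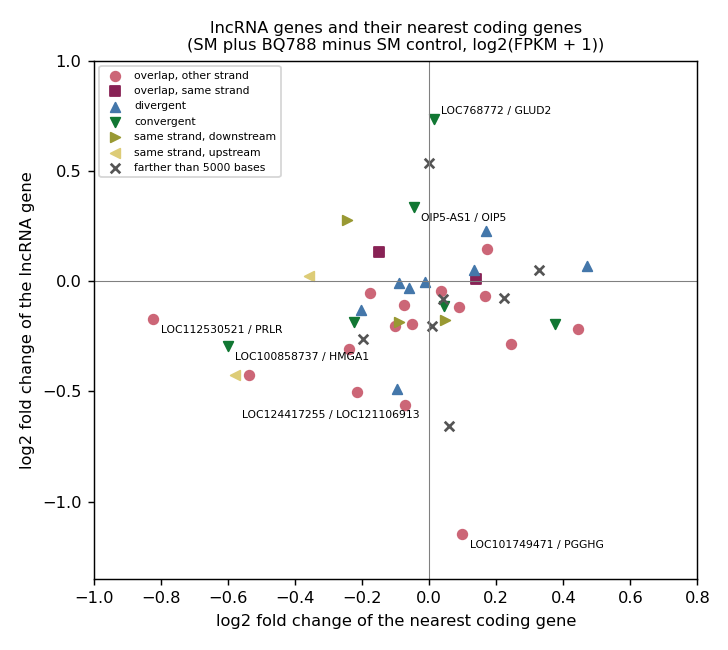
Log2 fold change (SM plus BQ788 minus SM control) of each abundant lncRNA gene on the vertical axis against that of its nearest coding gene on the horizontal axis, for the 44 pairs with a tested neighbour, with symbols for relative position and names where either gene passed. LOC768772, OIP5-AS1 and LOC101749471 lie off the horizontal line at 0 while their neighbours lie near 0, and CYLY, beside LOC418543, was too low to be tested.

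Overlap here is between whole gene spans, and exons were not compared. Where exons of a lncRNA gene and a coding gene overlap on opposite strands, reads there cannot be told apart unless counting used strand. Use of strand is not stated. The library kit as named in the labels is not described there as directional. This limit may touch above all the 8 genes whose description matches the protein of the overlapped gene, with a median length of 388 bases. They lie on SQSTM1, ST14, ALDH2, SMARCC1, RPL10A, POLR1B, EML3 and EBF3. Of the 8 coding partners, 6 had a log2 fold change below 0, beside 45.9% of all coding genes tested. All 8 lncRNA genes were below 0 (median -0.26, none past the threshold). So were 15 of the 17 whose longest overlap was on the other strand and 34 of the 47. The genes on EBF3 and EML3 averaged 6.30 and 6.91 FPKM in the controls and 4.03 and 4.89 FPKM with BQ788. Their sign is tied to the choice by mean level, as is that of LOC101749471 and LOC112530521 among the 17. The level of the 8 ran from 0.0385 to 3.58 times that of the coding gene. Lowest in this ratio was the short LOC124417412 on the ribosomal protein gene RPL10A. Highest was LOC107052872 on the RNA polymerase I subunit gene POLR1B. LOC121111118, on the transcription factor gene EBF3, was at 5.98, 6.76 and 6.16 FPKM in the controls and 3.91, 5.30 and 2.89 FPKM with BQ788, on 11 to 26 reads. Its groups lay apart, and it did not pass (log2 fold change -0.56, limma adjusted p = 0.125).

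Unlike LOC107053682 beside SOX10, the lncRNA genes nearest to ISL1 and SIX2 were below their neighbours in level. LOC107051937 on chromosome Z (15766889 to 15784397), 70947 bases from ISL1, a LIM homeobox gene of sensory and neuronal lineages, was at 21.1, 18.8 and 26.0 FPKM in the controls and 17.8, 15.8 and 20.8 FPKM with BQ788. ISL1 was at 73.3 ± 5.05 and 64.1 ± 9.20 FPKM, and neither gene passed (log2 fold changes -0.26 and -0.20, limma adjusted p = 0.323 and 0.346). The log2 fold change of LOC107051937 was -0.14 without SM control replicate 3. It was -0.17 when BQ788 replicate 2 was left out. LOC107052924, divergent from the homeobox gene SIX2 at 4708 bases, was at 8.03 ± 1.30 and 7.94 ± 0.803 FPKM against 52.8 ± 1.46 and 50.02 ± 9.12 FPKM for SIX2.

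The span of 4 abundant lncRNA genes held rows of snoRNAs, 9 in all, on the same strand, and none held a miRNA row. SnoRNAs guide the chemical modification of ribosomal and other RNAs and in vertebrates are usually cut from introns of a host transcript. LOC100858295 (2 snoRNA rows) was at 11.0 ± 0.889 and 9.44 ± 0.983 FPKM, LOC121113430 (4 rows) at 7.73 ± 2.88 and 8.47 ± 5.02 FPKM, LOC417551 (2 rows) at 7.81 ± 0.475 and 6.80 ± 0.240 FPKM and LOC420411 (1 row) at 6.02 ± 0.929 and 5.99 ± 0.742 FPKM. None of the 4 passed, and in LOC417551 alone the groups did not overlap (7.33, 7.81 and 8.28 against 7.07, 6.70 and 6.63 FPKM, limma adjusted p = 0.209).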

How the data were processed

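The authors deposited 1 table of FPKM values, with coordinates, lengths, biotypes and descriptions of the genes. The submitters' processing notes name fastp and the build GRCg7b, and neither aligner, counter nor use of strand is given in the sources. Per the labels' protocols the epithelium was freed with thermolysin (500 µg/ml) and 400 ng of total RNA entered library preparation. No dose or duration of BQ788 is stated in the labels.

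Multiplied by gene length, 100% of values were whole multiples of a library's step (tolerance 0.01 of a read), which gave reads per gene. At 1 kb, 3 reads amount to 0.169 to 0.193 FPKM, a limit for counting error only. Replicate libraries differed beyond counting noise (chi-square per degree of freedom 7.34 to 71.9).

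On log2(FPKM + 1), a linear model of group was fitted in limma 3.58.1 (R 4.3.3) with an eBayes trend. Its p-values are two-sided and adjusted by Benjamini-Hochberg over the 11857 genes averaging 1 FPKM or more. It was tested on simulated data first. Chromosome names came from RefSeq, where 25616 identifiers matched and 3 did not. The nearest coding gene is the one with the longest overlap, otherwise the smallest gap. Genes were named if they passed the threshold, were among the 6 smallest p or 10 highest levels, stood on the lncRNA list, lay at the threshold, were shortest or longest, held small RNA rows or lay next to a listed marker gene, with their nearest coding gene. SWI5, SMKR1, LOC107052924, LOC101749517, LOC124417255, LOC112530521, LOC107052872, LOC124417412 and LBH were named after their values were seen. The members, lists and tests were chosen with earlier results of these data known. Alternatives were other pseudocounts, filters, scalings, eBayes settings, limma voom on recovered reads, the replicate number as a block, each library left out, and other thresholds. Plain read totals and removal of the length trend were chosen after seeing the data.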

Additional observations from a re-analysis of the deposited data

How the results depend on the processing

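With 3 libraries per group the calls were at the limit of the test. Leaving out 1 library gave 0 to 2 abundant lncRNA genes higher, 0 to 4 lower, 1 to 1311 calls among all genes tested, and a median log2 fold change of -0.19 to -0.10 over the abundant lncRNA genes. The count of higher genes was 1 with eBayes without trend, with quantile normalization and with plain read totals, where all genes gave 220 calls. With no filter on low values, which tests more genes, it was 0 higher and 1 lower, with 68 calls over all genes. With the gene length trend removed the median was -0.069. The other settings kept both counts within 1.5 times. A threshold of 2 FPKM gave 145 lncRNA genes. One of 10 FPKM gave 21, of which 1 fell, and 5 FPKM in every library likewise left 1 that fell. The replicate number as a block gave 749 calls over all genes and 5 among the abundant lncRNA genes, LOC101749199 being added. Same-numbered libraries had deviations correlated at 0.50, 0.07 and 0.57, against -0.53 to 0.13 for libraries of unlike number. SM control replicate 2 did not correlate best with its own number. With 3 libraries per group these values cannot decide whether the numbers pair the samples. The sign changed, with no call, for LOC107052889 (0.0048), LOC124418405 (-0.0152) and LOC420411 (0.0574) without the length trend, for LOC124418405 with limma voom (-0.003) and median-of-ratios scaling (-0.001), and for LOC420411 with quantile normalization (0.0137). Without 1 library the log2 fold change ran from -0.12 to 0.21 for LOC124418405, -0.0939 to 0.0959 for LOC420411, -0.37 to 0.42 for LOC121113430, -0.0467 to 0.30 for LOC124417478 and -0.37 to 0.33 for LOC417447. The cause of these changes was not tested. Depth limits the 11 genes with fewer than 50 reads in a library.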
